A study of Mus musculus with 46 samples.

Results

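Glucocorticoid signalling in mouse liver was followed through 9 genes: the receptor gene Nr3c1, the genes Hsd11b1 and Serpina6, which act on the supply of hormone, and the hormone-induced target genes Fkbp5, Tsc22d3, Tat, Sgk1, Klf9 and Zbtb16. Members were the probe sets of the expression table whose platform gene symbol was exactly 1 of these names. All 9 were found, each with 1 probe set, among 35512 probe sets of which 23410 carried a gene symbol. The study applied sunscreens to the backs of SKH:QS mice 6 times over 4 days and measured liver RNA on Affymetrix arrays on day 5. It ran 2 experiments, 1 in virgin mice (24 arrays) and 1 in pregnant mice at about 17 days of gestation (22 arrays). Each had 4 arms: untreated mice, the sunscreen formulation without particles, the same kind of sunscreen with microparticles of zinc oxide (micro ZnO), and with nanoparticles of zinc oxide (nano ZnO). The oxide was made with the zinc-68 isotope.

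Each virgin arm held 6 mice. In the pregnant experiment the untreated and micro ZnO arms held 5 mice and the formulation and nano ZnO arms held 6. All mice lived alone in their cages under 14 h of light and 10 h of dark, and were killed by cervical dislocation after an injection of Xylase and ketamine at 50 mg/kg each. Elizabethan collars, fitted to limit licking of the sunscreen, stand in the protocol of every array, and whether untreated mice wore them is not stated separately. The age of the mice and the hour of killing are not given in the sources used here. Each array is labelled as a biological replicate, that is, 1 mouse.

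Glucocorticoids, corticosterone in the mouse, are released by the adrenal gland in a daily rhythm and under stress. In liver cells the hormone binds the glucocorticoid receptor, the product of Nr3c1, which is held ready by heat shock chaperones and then moves to the nucleus and switches on target genes. Hsd11b1 encodes the enzyme that regenerates active hormone inside the hepatocyte, and Serpina6 encodes corticosteroid-binding globulin, the liver-made plasma protein that carries the hormone. Among the targets, Fkbp5 encodes a co-chaperone that lowers the receptor's affinity for hormone. Tsc22d3 encodes GILZ, an anti-inflammatory leucine zipper protein, and Tat encodes tyrosine aminotransferase, the classical glucocorticoid-induced liver enzyme. Sgk1 encodes a serum- and glucocorticoid-induced kinase, and Klf9 and Zbtb16 (PLZF) encode transcription factors. All 6 targets also respond to signals other than this hormone.

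Promoter entries of the RefSeq annotation (GRCm38.p6) were matched for 6 members, Fkbp5, Tsc22d3, Sgk1, Tat, Klf9 and Hsd11b1, with 13 entries among them, and for 3 members, Zbtb16, Nr3c1 and Serpina6, there was none. The 250 bases before each start were searched on both strands for the receptor's palindrome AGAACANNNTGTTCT, for a single arm of that palindrome, AGAACA, which reads as TGTTCT on the other strand, and for CACGTG, the letters bound by clock and other basic helix-loop-helix proteins. Each full palindrome also counts as a match of the single arm. The stretches shown run from -250 to -151 relative to the start, with matches in capitals, and show 1 entry for each of the 3 members that had a match.
Fkbp5 (chr17:28486300-28486399, minus strand): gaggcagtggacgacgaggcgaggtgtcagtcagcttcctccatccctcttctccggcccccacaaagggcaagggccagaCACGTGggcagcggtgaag
Tsc22d3 (chrX:140600673-140600772, minus strand): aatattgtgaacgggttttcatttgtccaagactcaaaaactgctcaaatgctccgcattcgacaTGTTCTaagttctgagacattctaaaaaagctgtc
Sgk1 (chr10:21993640-21993739, plus strand): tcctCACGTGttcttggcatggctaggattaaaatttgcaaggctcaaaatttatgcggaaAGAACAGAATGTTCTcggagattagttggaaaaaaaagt
The Sgk1 stretch held the full palindrome from -189 to -175, which 3 of 32851 promoter entries (0.00913%) held, and CACGTG from -246 to -241. A further TGTTCT at -242 shares bases with that CACGTG and is not marked on its own, and 2 further Sgk1 entries held only the single arm. The Tsc22d3 stretch held the single arm from -185 to -180, as did 16.1% of entries somewhere in the 250 bases, and the Fkbp5 stretch held CACGTG from -169 to -164, as did 6.02%. The entries of Tat, Klf9 and Hsd11b1 held none of the 3 motifs in this window. These are letter matches in windows close to the start and say nothing of binding in these livers.

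The deposited values are log2 intensities after RMA, the authors' background correction, normalization and summary of probes. Array medians ran from 4.66 to 4.90 in virgin and from 3.98 to 4.12 in pregnant mice, so the 2 experiments were not on a common scale. Arms were therefore compared within 1 experiment. Only the responses of pregnant and virgin mice, and their untreated levels, were compared across both. On the first principal component, 3 arrays stood away from the rest of their group: untreated virgin replicate 1 at -50.7 and pregnant micro ZnO replicates 3 and 4 at 53.3 and 38.0. Hepatocyte markers (5 of 6 measured) stood at the 98.3rd percentile of their array or higher in the mean of every group, and none was called in a comparison of a sunscreen arm with untreated mice. Some markers of other liver cells were called in some arms. Of all probe sets, 26.5%, 4.43% and 11.9% were called in virgin mice with formulation, micro ZnO and nano ZnO. With formulation 11.5% were higher and 15% lower. In pregnant mice 0.107% of all probe sets were called with micro ZnO. Of 6 neutrophil markers 4 were higher with formulation and 3 with nano ZnO in virgin mice and 3 with micro ZnO in pregnant mice, and of 6 endothelial markers 3, 4 and 3 were lower in virgin mice with formulation, micro ZnO and nano ZnO. The mean level of the neutrophil markers ran from 4.20 to 4.35 in untreated virgin mice, from 4.38 to 5.44 with formulation, from 4.07 to 4.67 with micro ZnO and from 4.62 to 5.72 with nano ZnO. In pregnant mice it ran from 4.21 to 4.70 untreated, from 4.58 to 5.17 with formulation, from 5.18 to 6.34 with micro ZnO and from 4.70 to 6.60 with nano ZnO. The mean level of the endothelial markers ran from 5.68 to 5.86 in untreated virgin mice and from 5.37 to 5.62 over the 3 sunscreen arms. The 1 erythroid marker measured, of 4 listed, was lower in all 3 virgin arms (-0.89, -0.94 and -0.84 for formulation, micro ZnO and nano ZnO), at 6.61 to 7.69 in untreated mice and 5.37 to 6.52 over the treated ones. Of 5 stellate cell markers 2, 2 and 1 were lower and 1, 0 and 0 higher in the same arms, and their mean level ran from 6.11 to 6.31 in untreated and from 5.82 to 6.24 in treated mice. Of 4 markers of T and B cells 1 was higher and 1 lower with formulation and 1 higher with nano ZnO. The part of these markers in the results on the 9 genes was not tested.

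In virgin mice, sunscreen went with higher transcript levels of some glucocorticoid targets, and Fkbp5 moved most. Fkbp5 rose in all 3 sunscreen arms, by 0.57 ± 0.22 (SE, log2) with formulation, 1.15 ± 0.22 with micro ZnO and 1.05 ± 0.22 with nano ZnO. Tat rose with formulation and with nano ZnO, Serpina6 rose with nano ZnO, and Nr3c1 fell with formulation. The remaining members were not called in any arm against untreated mice. A gene was called at an adjusted p under 0.05 in limma, with Benjamini-Hochberg adjustment over all 23410 probe sets with a symbol. The 3 comparisons share the same 6 untreated mice.

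Of the 9 members, 2 were called higher and 1 lower with formulation, where 26.5% of all probe sets tested were called (11.5% higher and 15% lower), so this count lies near the background. With micro ZnO 1 member was called, higher, against 4.43% of all probe sets (1.63% higher), and with nano ZnO 3 were called, all higher, against 11.9% (4.77% higher). The median change of the members was 0.26 with formulation, 0.20 with micro ZnO and 0.42 with nano ZnO, and the median of all probe sets tested was 0.03, 0.01 and 0.02. The groups did not overlap for 0 of 9 members with formulation (9.5% of all probe sets), 1 with micro ZnO (3.31%) and 2 with nano ZnO (4.96%). For the mean of the 3 sunscreen arms minus untreated, 4 members were called higher and 0 lower, where 22% of all probe sets were called (9.82% higher). The members' median was 0.31 there, and that of all probe sets 0.02. The members were chosen with earlier results of these data known. A count or median above that of all probe sets, here or below, is therefore no independent support.

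**Figure D1:**
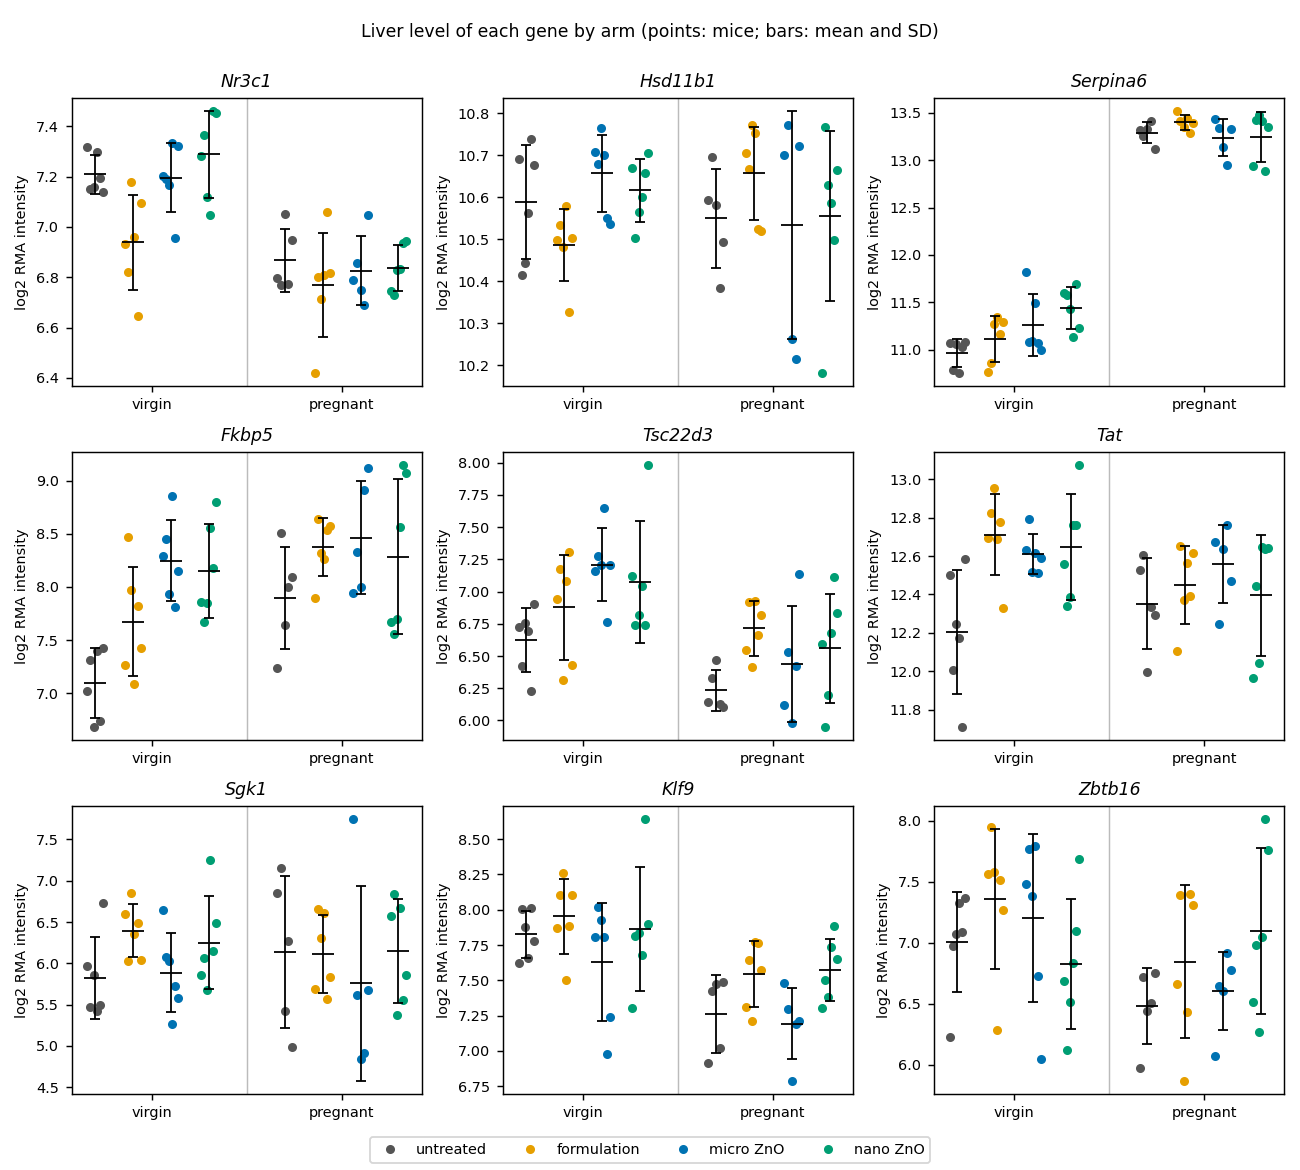
Each panel gives 1 gene, with the deposited log2 RMA intensity of every mouse on the y axis, arms side by side within virgin and pregnant mice, points for mice and bars for mean and SD. Virgin Fkbp5 lay between 6.69 and 7.43 in untreated mice and at 7.67 or higher in all mice of both ZnO arms; levels are not comparable between the experiments.

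Nr3c1, the receptor gene, was lowest with the particle-free formulation. Untreated virgin mice ran from 7.14 to 7.32 (median 7.18) and formulation mice from 6.65 to 7.18 (median 6.95). With micro ZnO the level ran from 6.96 to 7.33 (median 7.20) and with nano ZnO from 7.05 to 7.46 (median 7.32). Of the 6 formulation mice 5 lay below every untreated mouse, while the ZnO arms spread around the untreated level. The change was -0.27 ± 0.09 with formulation (limma adjusted p = 0.024), -0.01 ± 0.09 with micro ZnO (adjusted p = 0.95) and 0.08 ± 0.09 with nano ZnO (adjusted p = 0.59). In bulk liver a lower level can mean less transcript per cell or fewer cells that hold it, and these cannot be told apart here. The interquartile range of the arrays was lower with formulation (2.83 ± 0.05, SD, n = 6) than in untreated mice (2.97 ± 0.07). With that range as a covariate the Nr3c1 change was -0.04, and after a further quantile normalization it was -0.16, neither of them called. The call also ended when the clock score described further on was a covariate (-0.27), and without formulation replicate 2 (-0.25) or 5 (-0.21) or untreated replicate 1 (-0.25) or 4 (-0.25).

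Hsd11b1, which regenerates active hormone, stayed within a narrow range. It ran from 10.42 to 10.74 in untreated virgin mice (median 10.62) and from 10.33 to 10.58 with formulation (median 10.50). It ran from 10.54 to 10.77 with micro ZnO (median 10.69) and from 10.50 to 10.70 with nano ZnO (median 10.63). The groups overlapped, and the 95% confidence intervals of the changes reached from -0.24 to 0.04, from -0.07 to 0.21 and from -0.11 to 0.16 in the same order of arms (limma adjusted p = 0.257, 0.594 and 0.817).

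Serpina6, the gene of the hormone's carrier protein, rose in the nano ZnO arm. Untreated virgin mice ran from 10.76 to 11.08 (median 11.04) and nano ZnO mice from 11.13 to 11.70 (median 11.50), with no overlap. The change was 0.48 ± 0.13, or 1.40-fold (limma adjusted p = 0.0166). Micro ZnO mice ran from 11.00 to 11.82 (median 11.09) and formulation mice from 10.77 to 11.34 (median 11.22). Both groups overlapped the untreated mice, with changes of 0.30 ± 0.13 (adjusted p = 0.182) and 0.15 ± 0.13 (adjusted p = 0.384). Over the mean of the 3 arms the change was 0.31 ± 0.11 (adjusted p = 0.0355), with 14 of 18 treated mice above every untreated mouse. That last call ended without untreated replicate 1 (0.33), 2 (0.27), 4 (0.27) or 5 (0.32). It also ended in 5 of 8 other settings: over all probe sets (adjusted p = 0.056), with trend and robust moderation (0.0522), with a replicate block (0.0592), beside the interquartile range (0.175) and beside the clock score (0.887). In a fit with the clock score the change in the nano ZnO arm was -0.011 and that over the 3 arms -0.075.

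Fkbp5, the receptor's co-chaperone gene, separated both ZnO arms from the untreated mice. Untreated virgin mice ran from 6.69 to 7.43 (median 7.17). Micro ZnO mice ran from 7.81 to 8.86 (median 8.22) and nano ZnO mice from 7.67 to 8.80 (median 8.02). All 6 mice of each ZnO arm lay above every untreated mouse. The changes were 2.22-fold with micro ZnO (limma adjusted p = 0.0025) and 2.08-fold with nano ZnO (adjusted p = 0.00302), and both calls held when any 1 array was left out. Formulation mice ran from 7.09 to 8.47 (median 7.62), and 4 of 6 lay above every untreated mouse.

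The Fkbp5 call with formulation (1.49-fold, adjusted p = 0.0493) was close to the threshold. It ended without formulation replicate 2 (0.42), 3 (0.51) or 5 (0.55) and without untreated replicate 1 (0.56), 3 (0.49) or 5 (0.50). It also ended in 6 of 9 other settings, with changes from 0.45 to 0.61. Over the mean of the 3 arms Fkbp5 rose by 0.93 ± 0.18 (adjusted p = 0.000843), and 16 of 18 treated mice lay above every untreated mouse.

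Tat, the classical hormone-induced enzyme gene of liver, was higher by similar amounts in the 3 arms. Untreated virgin mice ran from 11.71 to 12.59 (median 12.21) and formulation mice from 12.33 to 12.95 (median 12.74). Micro ZnO mice ran from 12.51 to 12.79 (median 12.60) and nano ZnO mice from 12.34 to 13.07 (median 12.66). The ranges overlapped in each arm, yet all 18 treated mice lay above the untreated mean. Tat rose by 0.51 ± 0.13 with formulation (limma adjusted p = 0.00582) and by 0.44 ± 0.13 with nano ZnO (adjusted p = 0.0257). With micro ZnO the change was 0.41 ± 0.13 (adjusted p = 0.0681), and it was called without untreated replicate 6 (0.48, adjusted p = 0.0306). It was also called without dim probe sets (adjusted p = 0.0473), with array weights (adjusted p = 0.0457) and beside the interquartile range (0.56, adjusted p = 0.00837). The nano ZnO call ended without nano ZnO replicate 4 (0.42) or 6 (0.36) or untreated replicate 5 (0.34), and when the clock score was a covariate (0.56, adjusted p = 0.42). It also ended with the replicate number as a block (adjusted p = 0.0532) and with the 2 groups fitted alone (adjusted p = 0.0636), at an unchanged 0.44.

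Tsc22d3, the GILZ gene, was called over the mean of the 3 arms and in no single arm. Untreated virgin mice ran from 6.23 to 6.90 (median 6.71), formulation mice from 6.31 to 7.31 (median 7.01), micro ZnO mice from 6.76 to 7.65 (median 7.20) and nano ZnO mice from 6.74 to 7.98 (median 6.93). Each arm overlapped the untreated mice, with 4, 5 and 3 of 6 mice above every untreated mouse. The changes were 0.26 ± 0.19 (limma adjusted p = 0.314), 0.59 ± 0.19 (adjusted p = 0.0692) and 0.45 ± 0.19 (adjusted p = 0.111). Over the 3 arms Tsc22d3 rose by 0.43 ± 0.15 (adjusted p = 0.0436). That call ended in 14 of 24 fits that left out 1 array, with changes from 0.35 to 0.46: formulation replicates 1, 2, 4 and 5, micro ZnO replicates 1, 3 and 4, nano ZnO replicates 1 and 4, and untreated replicates 1 to 5. It also ended in 5 of 8 other settings: over all probe sets (adjusted p = 0.07), with trend and robust moderation (0.0683), with a replicate block (0.056), beside the interquartile range (0.102) and beside the clock score (0.558). With micro ZnO, in turn, Tsc22d3 was called without dim probe sets, with array weights and with the 2 groups alone (adjusted p from 0.0232 to 0.0497).

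Sgk1, Klf9 and Zbtb16 were not called in any virgin arm against untreated mice. Sgk1, the kinase gene, ran from 5.42 to 6.73 in untreated mice (median 5.68), from 6.03 to 6.85 with formulation (median 6.42), from 5.26 to 6.64 with micro ZnO (median 5.88) and from 5.67 to 7.25 with nano ZnO (median 6.11). Its changes were 0.57 ± 0.24 (limma adjusted p = 0.0796), 0.06 ± 0.24 (adjusted p = 0.92) and 0.42 ± 0.24 (adjusted p = 0.253). The untreated range rests at its upper end on replicate 6, and without that array the change with formulation was 0.75 (adjusted p = 0.02).

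The transcription factor gene Klf9 ran from 7.62 to 8.01 in untreated virgin mice (median 7.83), from 7.50 to 8.26 with formulation (median 7.99), from 6.98 to 8.02 with micro ZnO (median 7.81) and from 7.30 to 8.64 with nano ZnO (median 7.82). Zbtb16 ran from 6.23 to 7.36 in untreated mice (median 7.08), from 6.28 to 7.95 with formulation (median 7.54), from 6.04 to 7.80 with micro ZnO (median 7.44) and from 6.12 to 7.68 with nano ZnO (median 6.76). For both genes the arms lay across the untreated range in either direction. The changes of Klf9 lay between -0.19 and 0.13 and those of Zbtb16 between -0.18 and 0.35, with SE of 0.18 and 0.28 and adjusted p of at least 0.357. The 95% confidence intervals of Zbtb16 reached up to 0.94 with formulation, 0.78 with micro ZnO and 0.40 with nano ZnO.

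**Figure D2:**
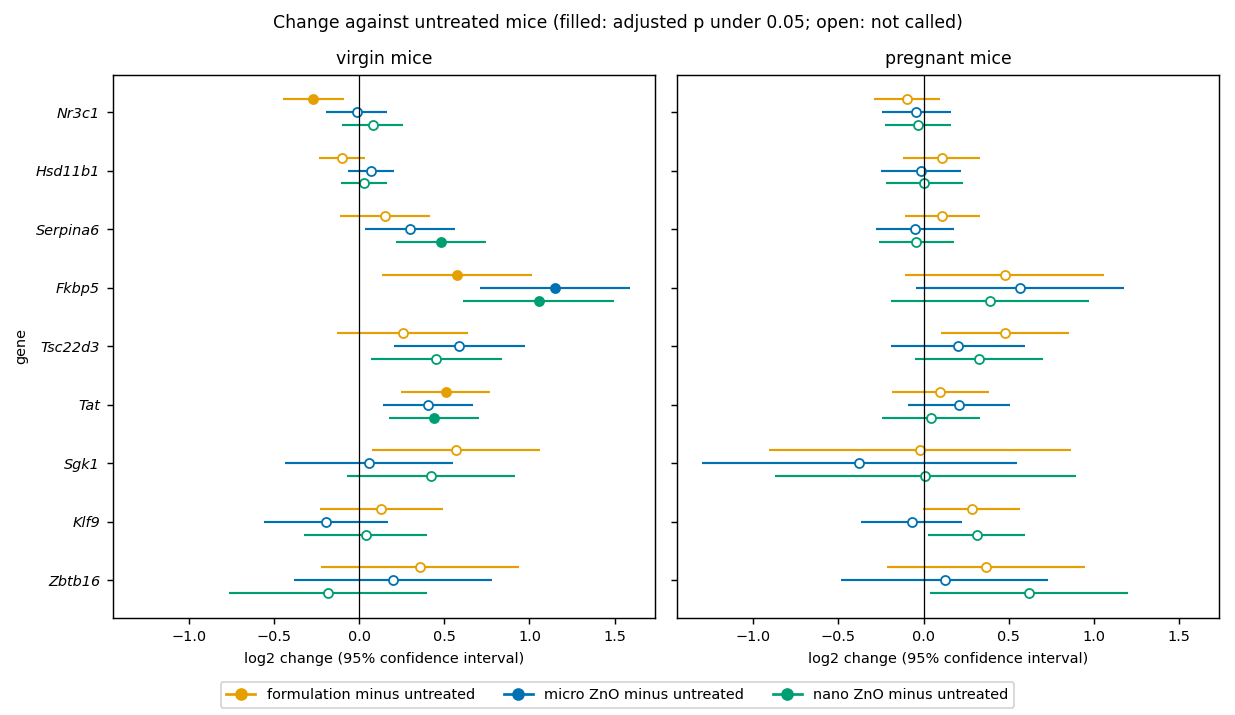
Log2 change of each gene against untreated mice of the same experiment on the x axis, with 95% confidence intervals, for 3 sunscreen arms in virgin (left) and pregnant mice (right). Filled points passed an adjusted p of 0.05 in limma, which 7 points did in virgin and 0 in pregnant mice.

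Other genes of liver that glucocorticoids induce were read from a list of 24, of which 22 were measured. With formulation 13 rose and 0 fell, with micro ZnO 6 rose and 1 fell, and with nano ZnO 5 rose and 0 fell, beside the shares of all probe sets given for the members. Their median changes were 0.44, 0.36 and 0.40. This list was chosen with earlier results of these data known. Counts above the shares of all probe sets are therefore no independent support. Dusp1, a phosphatase that shuts off MAP kinases, rose by 1.94 ± 0.30 with formulation and 1.76 ± 0.30 with nano ZnO, and Per1, a clock gene with a direct hormone response, rose by 0.79, 0.92 and 1.00 (SE 0.24) in the order formulation, micro ZnO, nano ZnO. Mt1 and Mt2, the metallothioneins, rose by 1.71 and 1.97 with formulation, 1.53 and 1.80 with micro ZnO and 1.38 and 1.44 with nano ZnO. Gadd45g, a growth arrest gene, rose by 1.78, 0.93 and 1.43. Lcn2, an iron-scavenging protein, rose by 2.01 with formulation and 1.98 with micro ZnO, and Igfbp1, a fasting-induced binding protein, by 2.17 with formulation. G6pc, the last enzyme of glucose output, fell by 0.98 ± 0.24 with micro ZnO.

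Several genes of that list are known to answer to other signals too: metallothioneins to zinc, Lcn2 to inflammatory cytokines and Igfbp1 and G6pc to insulin. The count with micro ZnO, 7 in all, was 4 when replicate 1 or 5 of that arm or untreated replicate 4 or 5 was left out, and 3 when its replicate 4 or untreated replicate 1 was. The count with nano ZnO, 5, was 8 without nano ZnO replicate 2. Fitted beside the clock score, 8, 1 and 0 genes were called in the 3 arms. With the interquartile range of the arrays as a covariate 6 genes were called with formulation and 4 with micro ZnO, and over all probe sets 4 with micro ZnO.

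**Figure D3:**
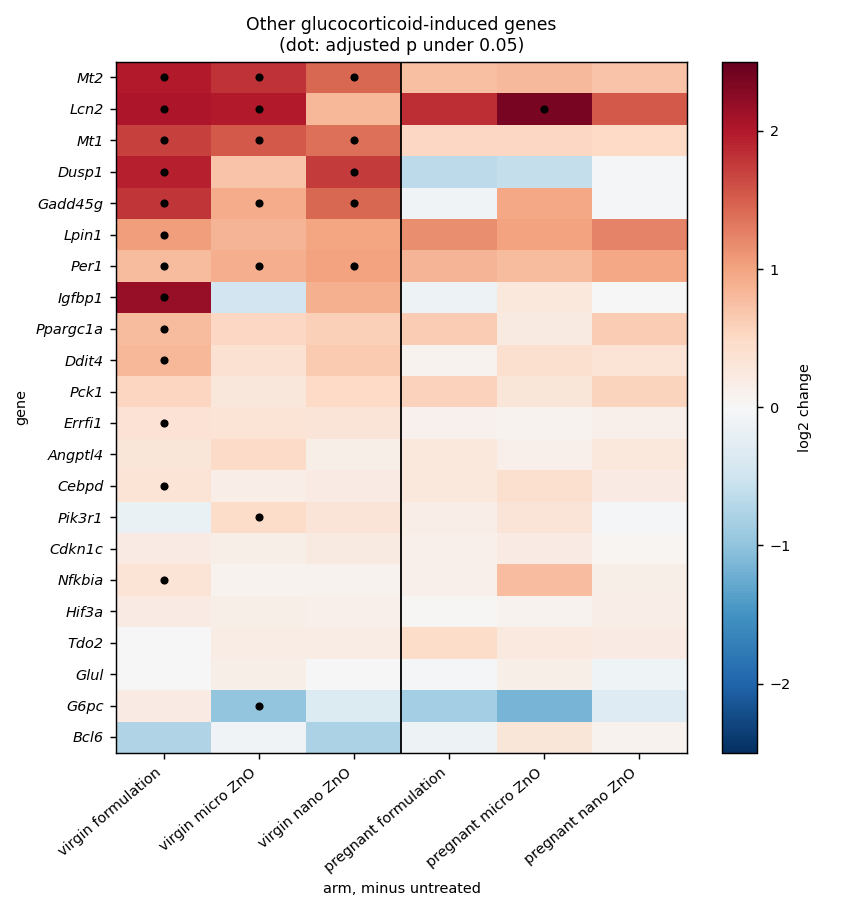
Colour gives the log2 change against untreated mice for 22 further glucocorticoid-induced genes (y axis) in 6 arms (x axis), red for higher and blue for lower, with a dot at an adjusted p under 0.05. Dots number 13, 7 and 5 in the virgin arms and 0, 1 and 0 in the pregnant arms.

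Of the receptor chaperones and coregulators (12 of 15 measured), 1 was called lower with formulation and 1 with nano ZnO. In these arms 26.5% and 11.9% of all probe sets were called. Positive changes numbered 3, 4 and 2 of 12 with formulation, micro ZnO and nano ZnO, and the median changes were -0.10, -0.05 and -0.07. Over the mean of the 3 arms 1 was called higher and 1 lower, against 22% of all probe sets. Ptges3, the p23 chaperone that stabilises the receptor complex, fell by 0.48 ± 0.14 with formulation (limma adjusted p = 0.0115), and Fkbp4, a co-chaperone that competes with the Fkbp5 product for the receptor complex, fell by 0.42 ± 0.14 with nano ZnO (adjusted p = 0.0482). None was called with micro ZnO, against 4.43% of all probe sets. An unadjusted limma p under 0.05 was held by 4, 2 and 2 of these genes in the 3 arms. Of all 23410 probe sets, 9292, 4976 and 6631 held it. Of the genes of steroid supply and clearance (8 of 9 measured), Hsd11b2, which inactivates the hormone, rose by 0.30 ± 0.09 with formulation (adjusted p = 0.0126). None was called with micro ZnO or nano ZnO. The shares of all probe sets called in the 3 arms were 26.5%, 4.43% and 11.9%. At an unadjusted p under 0.05 stood 3, 4 and 2 of these genes in the 3 arms, beside the same numbers of all probe sets. Over the mean of the 3 arms 2 of the 8 were called higher and 0 lower, against 22% of all probe sets. For micro ZnO minus formulation 1 gene of this list and 1 of the chaperone list were called, both higher, against 6.83% of all probe sets.

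The sunscreen arms were then compared with each other in virgin mice, which asks what the particles added to the formulation and whether their size mattered. Nr3c1 was higher with nano ZnO than with formulation, by 0.35 ± 0.09 (limma adjusted p = 0.0259), with all 6 nano ZnO mice above the formulation mean and 4 above every formulation mouse. It was the only 1 of 9 members called there, against 3.25% of all probe sets (2.52% higher), and the call ended without formulation replicate 2 (0.33) or 5 (0.29) or nano ZnO replicate 1 (0.35), 5 (0.32) or 6 (0.32). It ended as well with the 2 groups alone, with a replicate block, and beside the interquartile range (0.23) or the clock score (0.36). Between micro ZnO and formulation 0 of 9 members were called by limma, against 6.83% of all probe sets, and 4 had an unadjusted p under 0.05. Nr3c1 was at 0.26 ± 0.09 (adjusted p = 0.0709) and was called without formulation replicate 3 (0.31) or micro ZnO replicate 5 (0.31). Fkbp5 was at 0.58 ± 0.22 (adjusted p = 0.104) and was called without formulation replicate 2 (0.74, adjusted p = 0.0396), the formulation mouse with the highest Fkbp5.

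Between nano ZnO and micro ZnO 0 of 9 members were called by limma, as were 0% of all probe sets, and 0 had an unadjusted p under 0.05. The 95% confidence interval of the difference was -0.54 to 0.35 for Fkbp5, -0.23 to 0.30 for Tat, -0.08 to 0.45 for Serpina6 and -0.96 to 0.20 for Zbtb16. The Fkbp5 changes of both arms against untreated mice were larger than either end of its interval.

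Among the other induced genes the formulation arm stood higher than micro ZnO for 4 (Igfbp1 at -2.66 ± 0.33, Dusp1 at -1.22 ± 0.30, G6pc at -1.19 ± 0.24 and Gadd45g at -0.85 ± 0.26, micro ZnO minus formulation). Pik3r1, the regulatory subunit of the insulin-signalling kinase, was higher with micro ZnO (0.61 ± 0.13) and with nano ZnO (0.47 ± 0.13), and all 6 mice of either arm lay above every formulation mouse. Igfbp1 was lower with nano ZnO as well (-1.28 ± 0.33, limma adjusted p = 0.031). Fkbp5 and Igfbp1, both hormone-induced, had their highest mean levels in different arms, though no difference in Fkbp5 between sunscreen arms was called.

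In pregnant mice none of the 9 members was called against untreated mice. The counts were 0 of 9 by limma with formulation, micro ZnO and nano ZnO, where 0.0598%, 0.107% and 0.0214% of all probe sets were called, and 1, 0 and 2 members had an unadjusted p under 0.05. Over the mean of the 3 arms the count called was 0 as well, against 0.175% of all probe sets. There 1 member stood at an unadjusted p under 0.05, beside 3088 of all probe sets. The median change of the members was 0.11, -0.02 and 0.04, and that of all probe sets lay between -0.00 and 0.01. The groups did not overlap for 0 of 9 members in each arm, as for 2.36%, 1.34% and 1.29% of all probe sets.

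Fkbp5 varied widely among untreated pregnant mice, at 7.23, 8.51, 7.64, 8.002 and 8.10 in replicates 1 to 5. Formulation mice ran from 7.90 to 8.64 (median 8.43), micro ZnO mice stood at 7.94, 8.33, 8.004, 8.91 and 9.12, and nano ZnO mice ran from 7.56 to 9.15 (median 8.13). Of 17 treated mice 14 lay above the untreated mean and 8 above every untreated mouse. The changes were 0.48 ± 0.28, 0.57 ± 0.30 and 0.39 ± 0.28 (limma adjusted p = 0.488, 0.587 and 0.621). The 95% interval over the 3 arms reached from -0.01 to 0.97, so it holds both no change and the virgin value of 0.93.

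Tsc22d3 stood at 6.14, 6.33, 6.47, 6.13 and 6.10 in untreated pregnant mice and from 6.41 to 6.93 with formulation (median 6.74), where 5 of 6 mice lay above every untreated mouse. The change was 0.48 ± 0.18 (limma adjusted p = 0.322). Micro ZnO mice stood at 6.12, 6.53, 5.98, 6.42 and 7.13, and nano ZnO mice ran from 5.95 to 7.11 (median 6.63), both across the untreated range. Their changes were 0.20 ± 0.19 and 0.33 ± 0.18 (adjusted p = 0.815 and 0.527).

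Zbtb16 with nano ZnO was the largest change of a member in this experiment, at 0.62 ± 0.28 (limma adjusted p = 0.471). Nano ZnO mice ran from 6.27 to 8.01 (median 7.01) and untreated mice stood at 5.98, 6.72, 6.44, 6.51 and 6.75, so that 4 of 6 lay above every untreated mouse. Klf9 had changes of 0.28 ± 0.14 with formulation and 0.31 ± 0.14 with nano ZnO (adjusted p = 0.406 and 0.457). Its untreated values were 6.91, 7.43, 7.47, 7.02 and 7.49, and formulation and nano ZnO mice ran from 7.22 to 7.77 and from 7.31 to 7.88.

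Sgk1 was the most scattered of the 9 genes among pregnant mice, with untreated values of 6.85, 7.15, 5.43, 6.26 and 4.98 and micro ZnO values of 7.75, 5.62, 4.84, 4.91 and 5.67. A range of over 2 log2 units inside an untreated group left changes with an SE of 0.43 to 0.45, and adjusted p was at least 0.863. Tat ran from 11.996 to 12.61 in untreated pregnant mice and from 11.97 to 12.76 over all sunscreen arms, with changes from 0.04 to 0.21. The receptor gene Nr3c1 changed by -0.10 to -0.03 and the hormone-activating gene Hsd11b1 by -0.02 to 0.11. Serpina6 ran from 13.12 to 13.42 in untreated pregnant mice and from 12.89 to 13.52 in treated mice, with changes from -0.05 to 0.11. It stood at the 99.96th percentile of its array or higher in the mean of every pregnant group. Whether the array could show a further rise at that level was not tested.

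Of the 22 other induced genes 0 were called by limma in pregnant mice with formulation and 0 with nano ZnO. An unadjusted p under 0.05 was held by 7 and 6 of them, and by 2890 and 2396 of all 23410 probe sets. The shares of all probe sets called were 0.0598% with formulation, 0.107% with micro ZnO, 0.0214% with nano ZnO and 0.175% over the mean of the arms. With micro ZnO 1 of the other induced genes was called, Lcn2 at 2.38 ± 0.42 (adjusted p = 0.0125), in the arm with the highest neutrophil markers. That count was 0 without untreated replicate 3 and without micro ZnO replicates 3 and 4, and 3 without untreated replicate 2. Without untreated replicate 2 it was 2 with formulation. Over the mean of the 3 arms Lcn2, Mt1 and Mt2 rose by 1.92 ± 0.33, 0.51 ± 0.11 and 0.76 ± 0.15 (adjusted p = 0.0108, 0.0415 and 0.033), with 17, 13 and 12 of 17 mice above every untreated mouse. That count of 3 was 0 without untreated replicate 1 and 1 without formulation replicate 2, 3 or 6, nano ZnO replicate 5, or untreated replicate 3, 4 or 5. It was also 1 over all probe sets and with trend and robust moderation, and 0 beside the interquartile range or the clock score. The single call with micro ZnO, Lcn2, was lost over all probe sets, with trend and robust moderation and with the 2 groups alone. Per1, at 0.79 to 0.97, and Lpin1, at 1.00 to 1.24, had changes near those in virgin mice and were not called (adjusted p of at least 0.314).

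Between sunscreen arms of pregnant mice limma called 0 of 9 members in each of 3 comparisons, as it called 0% of all probe sets. At an unadjusted p under 0.05 stood 1 member between micro ZnO and formulation and 1 between nano ZnO and micro ZnO, Klf9 in both. Klf9 was at -0.35 ± 0.14 in the first (adjusted p = 0.62) and at 0.38 ± 0.14 in the second (adjusted p = 0.979).

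Whether the responses of pregnant and virgin mice differed was tested with an interaction term in a joint fit of the 8 groups on the deposited values. An offset between the experiments cancels in such a term, but a difference in spread does not. The mean interquartile range of the arrays was 2.90 in virgin and 3.14 in pregnant mice. No member was called (0 of 9 by limma for formulation, micro ZnO, nano ZnO and the mean of the arms, where 0.145%, 0.047%, 0.0427% and 0.0812% of probe sets were called). At an unadjusted p under 0.05 stood 1, 0, 2 and 2 members. The difference in the Fkbp5 response, pregnant minus virgin, was -0.10 ± 0.37 for formulation, -0.58 ± 0.38 for micro ZnO and -0.66 ± 0.37 for nano ZnO. That of Serpina6 for nano ZnO was -0.52 ± 0.17 (adjusted p = 0.532) and that of Tat for formulation -0.41 ± 0.20 (adjusted p = 0.473). The absence of calls in pregnant mice therefore does not show that these genes respond differently there. Among the other induced genes the formulation response was smaller in pregnant mice for Dusp1 (-2.59 ± 0.58, adjusted p = 0.039) and Mt1 (-1.198 ± 0.25, adjusted p = 0.0205).

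The level of the 9 genes in untreated pregnant and untreated virgin livers was compared after a joint quantile normalization of all 46 arrays, since the deposited scales differ. Pregnancy, the 2 experiments and their array processing cannot be told apart in this design. Serpina6 stood far higher in pregnant livers, and Fkbp5, Tat and Hsd11b1 were higher too, though Hsd11b1 was at -0.04 on the deposited scale. Of 9 members 4 were called higher and 0 lower, where 31.8% of all probe sets were called (14% higher), and 3 had groups without overlap, as had 16.8% of all probe sets. The median change was 0.39 for the members and -0.02 for all probe sets.

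Jointly normalized Serpina6 ran from 10.51 to 10.84 in untreated virgin mice and from 13.32 to 13.61 in untreated pregnant mice, a difference of 2.76 ± 0.12, or 6.78-fold (limma adjusted p = 6.28e-22). Plasma corticosteroid-binding globulin is known to rise in rodent pregnancy. On the deposited scale the Serpina6 difference was 2.33 and with each array centred on its median 3.03. Fkbp5 ran from 6.40 to 7.15 in virgin and from 7.42 to 8.70 in pregnant mice, and the difference was 1.25 ± 0.27 (adjusted p = 0.000391), 0.80 on the deposited scale and 1.495 with median centring.

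Hsd11b1 differed by 0.39 ± 0.08 (limma adjusted p = 0.000234) with no overlap, and by 0.66 with median centring. Tat differed by 0.59 ± 0.14 (adjusted p = 0.00112), by 0.15 on the deposited scale, where it was not called, and by 0.84 with median centring. The median of all probe sets shifted by -0.61 on the deposited scale and by 0.09 with median centring. Nr3c1, Tsc22d3, Klf9 and Zbtb16 had differences of 0.13, 0.11, -0.10 and -0.04 after joint normalization, -0.34, -0.39, -0.56 and -0.53 on the deposited scale, and 0.36, 0.31, 0.14 and 0.17 with median centring, so their direction depended on the scaling. Nr3c1 was called higher with median centring (adjusted p = 0.00634) and lower on the deposited scale (adjusted p = 0.000714), where Klf9 was called lower too (adjusted p = 0.00243). Sgk1 differed by 0.81 ± 0.36 (adjusted p = 0.0826), by 0.31 on the deposited scale (adjusted p = 0.418) and by 1.01 with median centring (adjusted p = 0.0297), where it was called. It was also called without untreated virgin replicate 6 (1.00) or untreated pregnant replicate 5 (1.09).

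**Figure D4:**
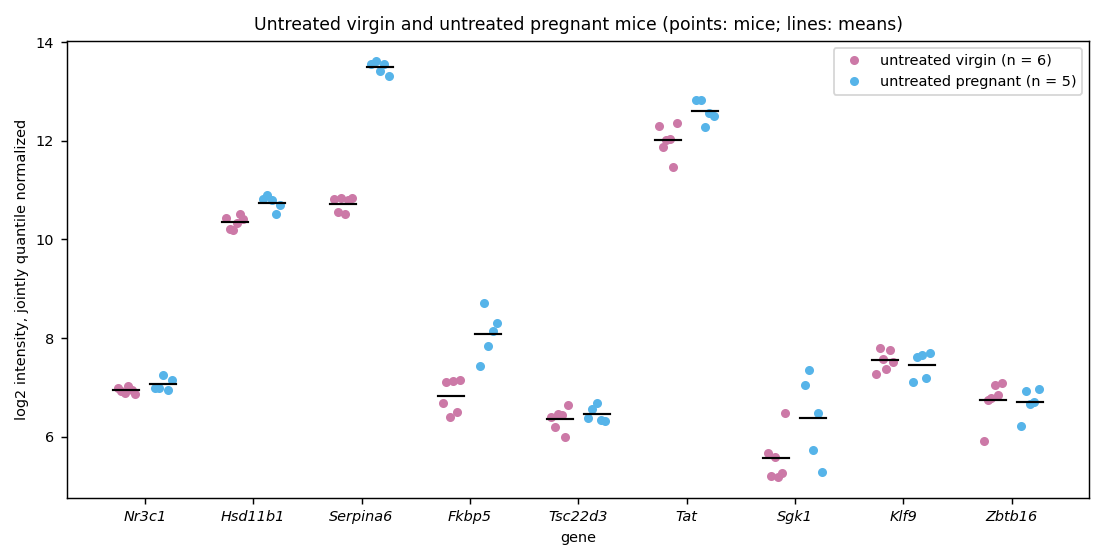
Jointly quantile normalized log2 intensity (y axis) of each gene (x axis) in 6 untreated virgin and 5 untreated pregnant mice, with points for mice and lines for means. The groups are apart for Serpina6 (10.51 to 10.84 against 13.32 to 13.61), Fkbp5 and Hsd11b1, and overlap for the other 6 genes; heights of different genes are not comparable.

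The other induced genes went both ways between untreated livers, with 6 of 22 higher and 3 lower after joint normalization and a median of 0.00. Lcn2 (1.89 ± 0.41), Mt1 (1.77 ± 0.18) and Mt2 (1.33 ± 0.26) were among the higher and Bcl6 (-1.76 ± 0.32), a transcriptional repressor, and Tdo2 (-0.89 ± 0.16), tryptophan dioxygenase, among the lower. Cyp3a11, a hydroxylase that clears steroids and drugs, was lower in pregnant livers, at -1.196 ± 0.15 with no overlap. Cell markers differed too, where 31.8% of all probe sets were called. Of 6 neutrophil markers 3 were higher in pregnant livers, with a median change of 0.88. Of 5 stellate markers 1 was higher and 2 were lower. Lower as well were 2 of 5 hepatocyte, 2 of 6 endothelial and 2 of 4 cholangiocyte markers. Tdo2 is also on the hepatocyte marker list. The part of cell content in these differences was not tested.

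In order of the deposited group mean, virgin Fkbp5 went from untreated (7.10 ± 0.33, SD) over formulation (7.67 ± 0.51) and nano ZnO (8.15 ± 0.44) to micro ZnO (8.25 ± 0.38). Of the steps in this order, that from untreated to formulation exceeded the larger SD of its 2 groups, and those from formulation to nano ZnO (limma adjusted p = 0.241) and from nano ZnO to micro ZnO did not. In pregnant mice the order was untreated (7.90 ± 0.48), nano ZnO (8.29 ± 0.73), formulation (8.37 ± 0.27) and micro ZnO (8.46 ± 0.53), and no step in it exceeded the larger SD of its 2 groups.

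How the members varied together was described on the deviation of each mouse from the mean of its arm, so that the arms themselves play no part. Fkbp5 and Zbtb16 varied together in both experiments (Pearson r = 0.66 over 24 virgin and 0.74 over 22 pregnant mice, Spearman rho = 0.70 and 0.77). Fkbp5 and Tsc22d3 had r = 0.49 and 0.73 (rho = 0.40 and 0.69), and Fkbp5 and Tat r = 0.58 and 0.52 (rho = 0.61 and 0.56). Fkbp5 and Sgk1 had r = 0.19 and -0.22 (rho = 0.11 and -0.18), while Sgk1 and Tat had r = 0.59 and 0.29. Without the 2 mice farthest from the median, r was 0.57 and 0.65 for Zbtb16, 0.30 and 0.65 for Tsc22d3 and 0.52 and 0.43 for Tat. Both genes of a correlation are read from the same arrays and normalization, and no p is given.

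Of 19938 genes with 1 symbol, those whose within-arm deviations were most like Fkbp5, by the mean of the 2 Pearson correlations, were St3gal5 (0.81), Aifm2 (0.79) and Lpin1 (0.77). For Zbtb16 they were Lpin1 (0.87), Pck1 (0.79) and Arhgef26 (0.79), for Tsc22d3 Marveld1 (0.78), Smarcd2 (0.77) and Tmem25 (0.74), and for Tat Mfsd2a (0.79), Rasgef1b (0.78) and Bcl2l1 (0.70). For Sgk1 they were G6pc (0.71), Plk2 (0.68) and Ptp4a2 (0.64), and for Klf9 Tle1 (0.79), D230025D16Rik (0.77) and Cnppd1 (0.74). Nr3c1 was most like Hbs1l (0.71), Fig4 (0.70) and Mcl1 (0.68), Hsd11b1 like C8g (0.79), Hadh (0.77) and Ugt2b36 (0.74), and Serpina6 like Fads2 (0.80), Tecr (0.76) and Hdac11 (0.70). Lpin1, Pck1 and G6pc stand on the list of other induced genes.

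Because corticosterone has a daily rhythm, a clock score was set beside the members: the mean log2 level of Dbp, Tef, Hlf, Nr1d1, Nr1d2, Per3 and Ciart minus that of Arntl, Clock and Nfil3, which peak at the opposite time. In virgin mice it ran from -1.52 to -0.80 untreated, from -1.18 to 1.08 with formulation, from 0.07 to 2.40 with micro ZnO and from 0.98 to 1.53 with nano ZnO. Untreated and ZnO mice thus did not overlap in the score, as they did not in Fkbp5. In pregnant mice it ran from -1.77 to 1.73 untreated, from 0.42 to 1.64 with formulation, from -0.06 to 1.68 with micro ZnO and from -1.64 to 1.93 with nano ZnO.

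Within arms Fkbp5 followed the clock score closely in pregnant mice (r = 0.78, rho = 0.83, n = 22, and r = 0.83 without the 2 mice farthest from the median score) and weakly in virgin mice (r = 0.19, rho = 0.23, n = 24). The score had an SD of 0.35 untreated, 0.84 with formulation, 0.95 with micro ZnO and 0.23 with nano ZnO in virgin mice. In pregnant mice the SD was 1.46, 0.47, 0.64 and 1.45 in the same order. The bearing of this unequal spread on the 2 correlations was not tested. The 3 nano ZnO pregnant mice with Fkbp5 at 8.56, 9.15 and 9.07 had scores of 1.77, 1.93 and 1.53, and the 3 at 7.67, 7.56 and 7.70 had scores of -0.35, -1.64 and -0.16. Tsc22d3 had r = 0.58 in pregnant and 0.03 in virgin mice, Zbtb16 0.63 and 0.20, Klf9 0.55 and 0.18, Tat 0.34 and -0.14, and Serpina6 -0.35 and 0.57.

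Fitted beside the clock score, the virgin Fkbp5 changes were 0.90 with micro ZnO and 0.77 with nano ZnO, and limma called neither (adjusted p = 0.382 and 0.518). In that fit 0 of 9 members were called in either ZnO arm. The SE of the Fkbp5 change went from 0.22 to 0.35 and 0.37. The score and the ZnO arms separate the same virgin mice from the untreated ones, so a change that follows the score and a change that follows the arm cannot be told apart there.

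**Figure D5:**
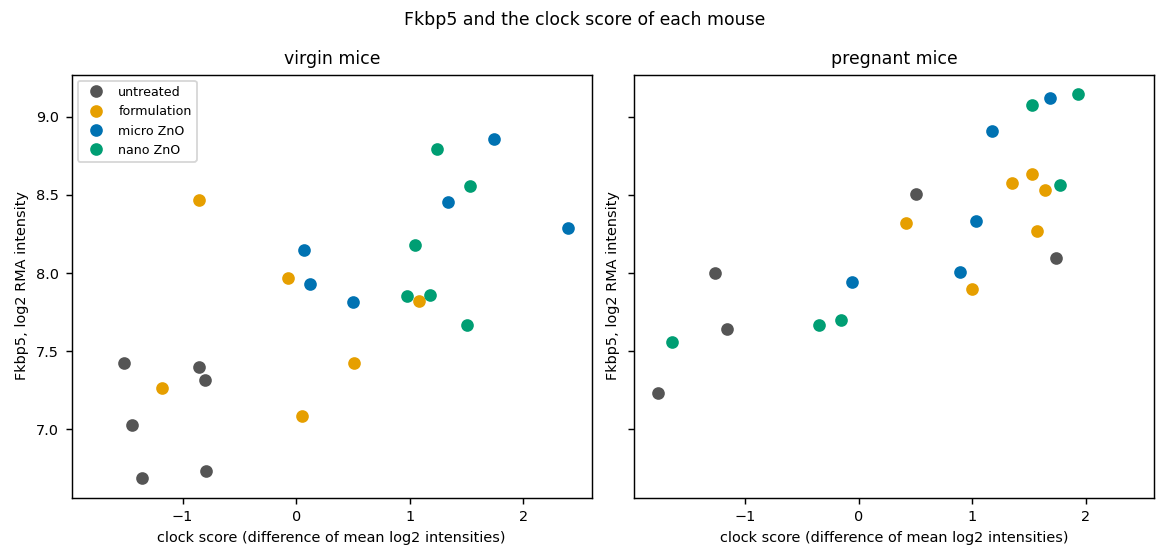
Deposited log2 intensity of Fkbp5 (y axis) against the clock score (x axis, difference of mean log2 intensities) for each virgin (left, n = 24) and pregnant mouse (right, n = 22), coloured by arm. Untreated virgin mice lie at a score of -0.80 or lower and Fkbp5 of 7.43 or lower, and in pregnant mice both spread together within arms (r = 0.78).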

How the data were processed

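Liver RNA of 46 mice was measured on Affymetrix arrays. The authors deposited log2 intensities made by RMA, per the submitters' processing notes, with no version given; the array medians show that the 2 experiments were not on 1 scale. All 46 columns were used and 0 were not. Probe sets were named from the platform annotation: 21789 had 1 symbol, 1621 several and 12102 none. No replicates were identical (r between arrays at most 0.99), and precision is limited by how many arrays each arm has.

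Changes were fitted with limma 3.58.1 in R 4.3.3 (lmFit and eBayes, two-sided, all 4 arms of an experiment sharing 1 spread), with Benjamini-Hochberg adjustment over 23410 probe sets with a symbol and a threshold of 0.05. Interactions came from a joint fit of 8 groups on the deposited values. Untreated pregnant and virgin mice were compared after joint quantile normalization, with deposited and median-centred scales beside it. Figures were drawn with matplotlib 3.10.9. On simulated data the virgin formulation comparison found 89 of 100 probe sets changed 1.5-fold and 99 of 100 changed 2-fold. The pregnant one found 73 and 97, and the interaction 56 and 95. False calls among unchanged probe sets were 7, 13 and 17. The changed probe sets were drawn at random, with independent noise at the SD of each. These shares therefore do not give the chance of calling a given member, least of all a scattered one such as Sgk1.

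The text names all 9 members, up to 5 genes per pathway list and comparison, called ones of largest change first, and the 3 genes most like each member. A gene named in 1 comparison is also given in others, among them Per1 in all arms and Lpin1 in pregnant mice. The members, lists and clock score were chosen with earlier results of these data known. Npas2 of the clock list was not measured. Other settings tried were a filter that drops probe sets under the 40th percentile of mean level, the use of all probe sets, moderation with trend and robust options, array weights, a further quantile normalization, fits of only the groups compared, a block for the replicate number, a covariate (interquartile range or clock score), and leaving out each array. A fit without pregnant micro ZnO replicates 3 and 4, and the counts of the pathway list under each alternative, were added after seeing the data.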

Additional observations from a re-analysis of the deposited data

Results flagged for a closer look

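The values of 9 genes in 8 groups of mice made 72 sets of values, and in 3 of them 1 mouse lay far from the rest by Dixon's test at the 95% level, which chance gives in about 1 in 20 sets. Tsc22d3 was at 7.98 in virgin nano ZnO replicate 6, with the nearest mouse of its group at 7.12. Sgk1 was at 7.75 in pregnant micro ZnO replicate 1, with the nearest at 5.67. Zbtb16 was at 6.23 in untreated virgin replicate 1, with the nearest at 6.97, and that array also lay apart on the first principal component of its experiment.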

How the results depend on the processing

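Of 1548 values under other settings, 1507 kept their direction and their side of the threshold, 29 lost and 10 gained a call, and 2 reversed. Those were Serpina6 with the clock score as a covariate, at -0.011 for virgin nano ZnO and -0.075 for the mean of the virgin arms. Members called in virgin mice against untreated mice were 1 with formulation (3 before) with the interquartile range or the clock score as a covariate. With micro ZnO (1 before) they were 3 without dim probe sets or with array weights, 2 with the groups alone or the interquartile range, and 0 with the clock score. With nano ZnO (3 before) they were 0 with the clock score, and over the mean of the arms (4 before) 2 over all probe sets, with trend and robust moderation or the interquartile range, and 0 with the clock score. Micro ZnO against formulation went from 0 to 1 without dim probe sets, and nano ZnO against formulation from 1 to 0 with the groups alone, the interquartile range or the clock score. The cause of these shifts was not tested. Leaving out 1 array gave 1 to 4 members for formulation, 1 to 2 for micro ZnO, 2 to 3 for nano ZnO, 2 to 4 for the mean of the arms, 0 to 1 for either ZnO arm against formulation and 4 to 5 for untreated pregnant against virgin mice. It gave 0 throughout for nano ZnO against micro ZnO, for all comparisons within pregnant mice and for the interactions. Replicate numbers are shared across arms, and the sample labels state no pairing of mice by number. Deviations of same-numbered mice correlated at a median of -0.13 in virgin mice (1 of 36 pairs over 0.1) and 0.02 in pregnant mice (12 of 31). For mice of different numbers the medians were 0.04 and -0.01. Whether mice of the same number shared a day or batch cannot be told from these values. With the number as a block 2 members were called over the mean of the virgin arms and 0 between nano ZnO and formulation, and of the other induced genes 8 were called with formulation and 4 with micro ZnO. Other probe sets of a member could not be tried, since each had 1. With 5 or 6 arrays per arm and low SE only for genes of even level, changes in Sgk1 and Zbtb16 were the least precise.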
